A study of Mus musculus with 12 samples.

Results

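The 43 genes described here encode proteins of the cell division cycle, and they were taken by gene symbol from a table of 22294 genes, in which each of the 43 had 1 row. Of these, 16 act in DNA replication, 3 govern entry into S phase (E2f1, Ccne1 and Ccne2) and 24 act in mitosis. They were measured by RNA sequencing in 12 libraries of mouse endometrial cells sorted with magnetic beads against F4/80, a surface antigen of mouse macrophages. The 3 primed MSC libraries came from mice with a model of intrauterine adhesion (IUA), scarring of the uterine cavity, that were given human umbilical cord mesenchymal stromal cells (MSC) primed with inflammatory cytokines. The 3 control MSC libraries came from IUA mice given control MSC. The 3 IUA libraries came from mice with the model, and their titles read Matrigel, a basement membrane gel. Whether mice given MSC also received Matrigel is not stated, so a Matrigel effect cannot be told apart from the other differences with IUA. The 3 Sham libraries came from mice with a sham operation. Mouse strain, age, the cytokines used for priming, the times of treatment and the number of mice in a library are not given in the sources used here. The study asked how MSC, primed or not, alter gene expression of the sorted cells in this model.

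A dividing cell first licenses its replication origins with the helicase of the Mcm proteins, then copies its DNA in S phase with the help of the sliding clamp Pcna and of enzymes that make deoxynucleotides. It then separates the copies in mitosis under the kinase Cdk1 with its B-type cyclins, the spindle motors and a ubiquitin ligase, the anaphase-promoting complex. Genes of S phase are driven largely by E2F transcription factors and peak earlier in the cycle than genes of mitosis, which are regulated through the DREAM and MuvB complexes, B-Myb and Foxm1. Resident macrophages of tissues can divide in place, while others derive from circulating monocytes. In sorted bulk RNA, fewer cycling cells and less RNA per cycling cell cannot be told apart.

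Promoters of S phase and of mitosis genes are known to carry different motifs, and 5 promoters of members that changed are shown so that these can be seen. Promoters were RefSeq windows of 300 bases on build GRCm38.p6, 250 before to 50 after a listed transcript start. That start need not be the outermost start of the gene. Of the 43 genes 35 matched, with 38 windows. Both strands were searched for an E2F motif (TTTCCCGC, TTTGGCGC, TTTCCCGG or TTTCGCGC), the CHR element of mitosis genes (TTTGAA or TTCGAA) and CCAAT. Each window is written along the strand of its gene, and capitals mark every match to any of the 3 motifs, and 2 of the 111 matches in the members overlapped a match to another motif. Mcm3 and Mcm2 encode helicase subunits and stand for replication, and Ccnb2, Cdk1 and Top2a stand for mitosis.
Mcm3 (chr1:20820263-20820562, minus strand): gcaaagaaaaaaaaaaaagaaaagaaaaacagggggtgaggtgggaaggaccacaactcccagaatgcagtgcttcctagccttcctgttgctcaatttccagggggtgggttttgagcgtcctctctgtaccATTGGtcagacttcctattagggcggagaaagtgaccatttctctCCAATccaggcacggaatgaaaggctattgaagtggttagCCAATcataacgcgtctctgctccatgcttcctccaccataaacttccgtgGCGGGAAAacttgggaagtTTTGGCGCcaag
Mcm2 (chr6:88898731-88899030, minus strand): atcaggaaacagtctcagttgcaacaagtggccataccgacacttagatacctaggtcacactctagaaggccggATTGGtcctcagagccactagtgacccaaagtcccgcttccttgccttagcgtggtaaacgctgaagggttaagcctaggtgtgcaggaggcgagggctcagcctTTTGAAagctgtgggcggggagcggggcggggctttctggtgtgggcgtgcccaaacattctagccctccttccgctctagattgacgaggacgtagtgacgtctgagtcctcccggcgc
Ccnb2 (chr9:70421505-70421804, minus strand): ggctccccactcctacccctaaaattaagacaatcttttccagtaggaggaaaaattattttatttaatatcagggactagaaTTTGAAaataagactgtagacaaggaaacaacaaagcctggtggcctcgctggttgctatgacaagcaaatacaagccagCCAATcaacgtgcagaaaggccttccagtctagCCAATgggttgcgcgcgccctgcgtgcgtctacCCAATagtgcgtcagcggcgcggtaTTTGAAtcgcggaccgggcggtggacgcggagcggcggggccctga
Cdk1 (chr10:69352863-69353162, minus strand): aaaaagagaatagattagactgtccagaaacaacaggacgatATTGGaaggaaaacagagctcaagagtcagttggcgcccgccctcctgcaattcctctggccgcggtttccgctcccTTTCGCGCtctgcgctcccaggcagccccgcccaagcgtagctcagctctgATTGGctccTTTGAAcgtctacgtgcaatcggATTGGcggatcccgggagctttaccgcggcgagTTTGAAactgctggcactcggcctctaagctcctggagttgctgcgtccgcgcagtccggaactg
Top2a (chr11:99024140-99024439, minus strand): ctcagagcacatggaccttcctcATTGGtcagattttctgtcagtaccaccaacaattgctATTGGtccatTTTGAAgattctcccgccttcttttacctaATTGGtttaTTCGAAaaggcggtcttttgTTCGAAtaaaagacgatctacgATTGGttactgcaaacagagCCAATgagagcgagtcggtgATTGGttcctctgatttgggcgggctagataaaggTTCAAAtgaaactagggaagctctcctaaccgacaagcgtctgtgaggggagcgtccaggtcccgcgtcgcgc
An E2F motif stood in 7 of 16 replication windows (43.8 percent), in 2 of 20 mitosis windows (10 percent) and in 3.07 percent of all 32851 windows. The CHR element stood in 3 of 16 replication windows (18.8 percent) and in 16 of 20 mitosis windows (80 percent), against 19.2 percent of all windows. CCAAT stood in 13 of 16 replication windows, in 18 of 20 mitosis windows and in 37.4 percent of all windows. Of the windows shown, that of Mcm3 holds 2 E2F matches and no CHR match, that of Mcm2 holds no E2F match and 1 CHR match, that of Ccnb2 holds no E2F match and 2 CHR matches, that of Top2a holds 4 CHR matches and 6 CCAAT matches, and that of Cdk1 holds all 3 motifs. The windows of E2f1, Ccne1, Tyms and Nusap1 held none of these letters. The E2f1 window (154569377 to 154569676) lies inside the annotated gene, which starts at 154569892 on the minus strand. It therefore does not show whether E2f1 has an E2F motif at that start. Some other windows also lie past the annotated start, such as that of Cdc6 (98907901 to 98908200, gene start 98907801). A match describes the letters only.

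The authors deposited FPKM values, which divide the fragments of a gene by its length and by the library's mapped fragments. They summed to between 505459.9 and 563751 in a library, and the sequencing depth is unknown. The sort antigen gene Adgre1 was listed at 982.99 to 1381.86 FPKM in primed MSC, 836.65 to 1038.88 in control MSC, 401.22 to 475.56 in IUA and 204.74 to 256.14 in Sham. All 8 macrophage markers were detected in every library, and their summed FPKM was 20620 to 22563 in primed MSC, 22096 to 24427 in control MSC, 20108 to 21080 in IUA and 6764 to 9127 in Sham. The 10 epithelium markers summed to 1416 to 2236 FPKM in primed MSC, 1441 to 3635 in control MSC, 1499.97 to 4988 in IUA and 7504 to 12959 in Sham. Endothelium markers (7 genes) summed to 77.0 to 91.2 FPKM in primed MSC, 82.0 to 123 in control MSC, 86.2 to 106 in IUA and 174 to 313 in Sham. None of these macrophage, epithelium or endothelium markers was at 0 in any library, and the monocyte marker sum was 1938 to 2330 in primed MSC, 1894 to 3067 in control MSC, 1594 to 5795 in IUA and 345 to 366 in Sham. Of all 12 libraries, Sham replicate 1 had the highest smooth muscle (1063 FPKM), stroma (868) and mast cell (84.2) marker sums. The 8 neutrophil and precursor markers summed to 56.8 to 173 FPKM in primed MSC, 76.7 to 156 in control MSC, 42.03 to 174 in IUA and 12.6 to 31.9 in Sham, and the defining marker Ly6g was at 0 in every Sham library and in IUA replicate 2. In no library was Ly6g above 0.69 FPKM. Of the 5 tested, 2 were higher in primed MSC, 2 in control MSC and 4 in IUA, each against Sham, and 0 were lower. The shares of all tested genes called higher were 14.5, 14.1 and 11.1 percent. Retnlg went the other way in the MSC groups, at 3.35 to 8.14 FPKM in primed MSC and 3.01 to 8.86 in control MSC. It was at 1.04 to 22.19 in IUA and 10.39 to 23.24 in Sham. These marker levels moved with Sham in the 3 comparisons against it, and some also differed among the IUA groups. In primed MSC against IUA, 4 of 8 macrophage markers were higher and 0 lower, against 12.2 and 6.97 percent of all tested genes. Of 6 monocyte markers 1 was higher and 2 lower there, 3 of 7 stroma markers were lower, and 0 of 10 epithelium markers were called. The part of the marker levels in the results was not tested.

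Most of the members were expressed at a low level. Genes with at least 1 FPKM in at least 3 libraries were tested, which left 11604 genes and 38 of the 43 members. The median of the tested members' mean FPKM was 3.56, against 7.68 over all tested genes. In 22 members every library lay under 5 FPKM, and in 6 every library lay over 5 FPKM. Pcna had the highest mean of all members. The 5 members not tested were the replication initiation factor Mcm10 (0.27 to 1.54 FPKM), the transcription factor Foxm1 (0.16 to 0.8), the checkpoint kinase Bub1 (0.29 to 1.34) and the kinetochore proteins Cenpe (0.22 to 1.08) and Cenpf (0.19 to 1.91). The highest Cenpf value, 1.91 FPKM, stood in primed MSC replicate 2, and every other library had 0.66 or less.

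In 3 of the 4 groups a single library held the highest value for most members. Primed MSC replicate 3 held the highest value of its group for 41 of the 43 members, while it was highest for 48.2 percent of all tested genes. Control MSC replicate 3 was highest for 38 members, against 29.0 percent of all tested genes. Sham replicate 1 was highest for 37 members, against 41.4 percent of all tested genes. In IUA the highest value was spread over replicates 1, 2 and 3, with 12, 13 and 18 members. The heatmap of all members shows these 3 libraries as columns of high values.

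**Figure D1:**
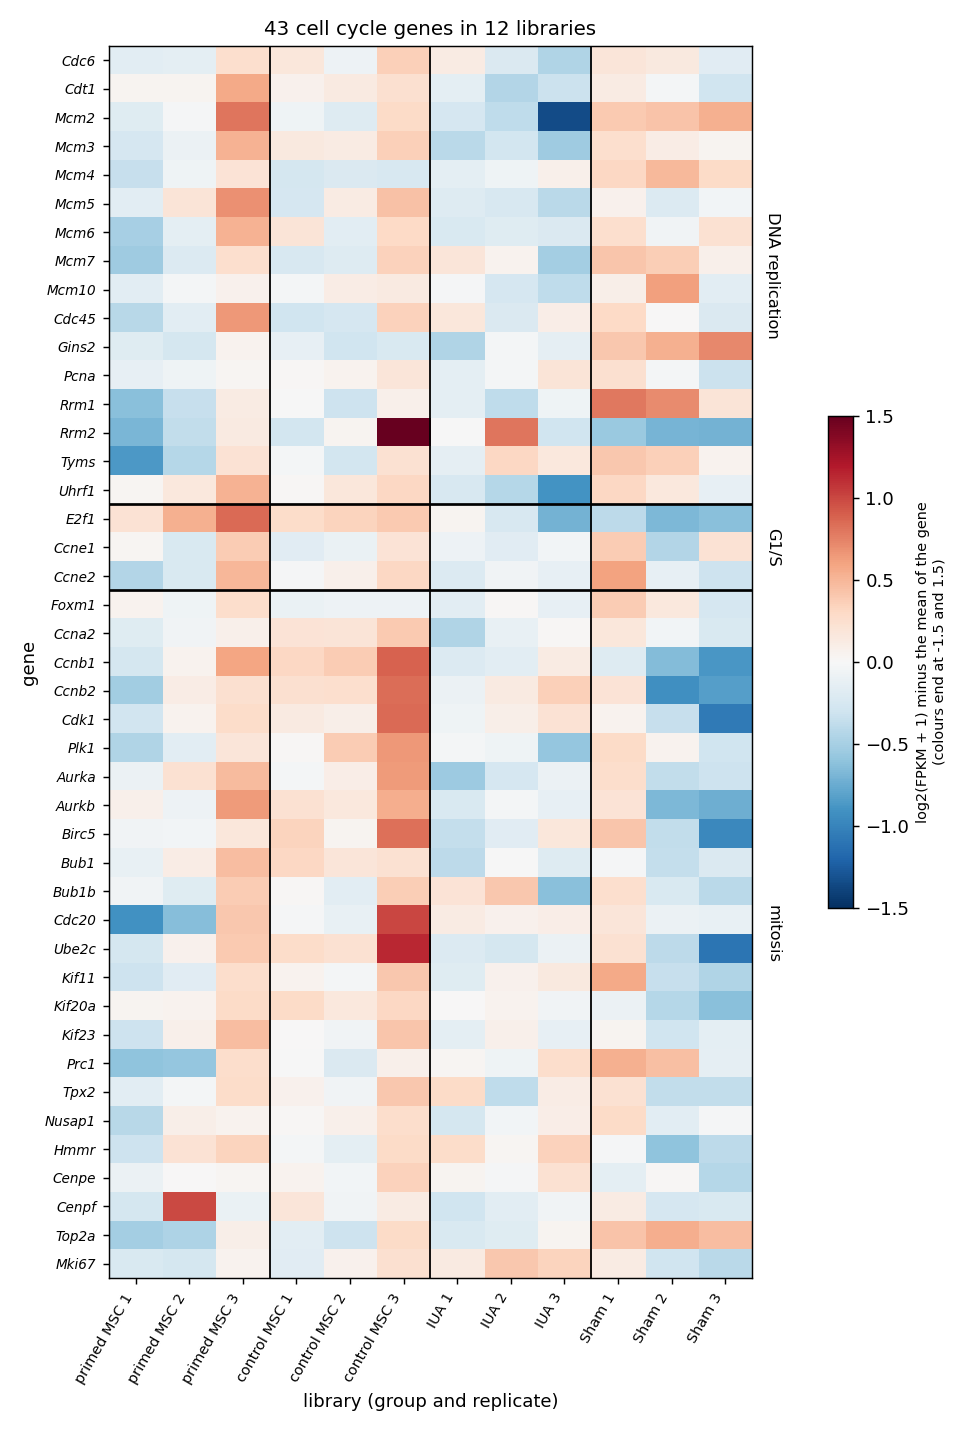
Level of each of the 43 members (rows, in 3 blocks for DNA replication, G1/S and mitosis) in each of the 12 libraries (columns). Colour gives log2(FPKM + 1) minus the mean of that gene over the libraries, red for higher and blue for lower, and it saturates at the ends of the scale. Primed MSC 3, control MSC 3 and Sham 1 are red over most rows, E2f1 is blue in all 3 Sham libraries, and Gins2, Rrm1 and Top2a are red in them.

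Differences were tested with limma on log2(FPKM + 1) in 1 model of all 12 libraries, and a gene passed where its p, adjusted over all 11604 tested genes by the Benjamini-Hochberg method, was under 0.05. Log2 changes on this scale understate the change of genes with low FPKM. The labels do not say that libraries came from separate mice, so a p-value reflects only how much these libraries vary. Against Sham, a smaller share of the members than of all tested genes passed. In IUA against Sham, 3 of 38 members were higher, against 11.1 percent of all tested genes, and 7 were lower, against 45 percent. In control MSC against Sham, 7 members were higher, against 14.1 percent of all genes, and 4 were lower, against 42.7 percent. In primed MSC against Sham, 3 members were higher, against 14.5 percent, and 6 were lower, against 45 percent. Leaving out Sham replicate 2 gave 5, 7 and 5 called members in these comparisons (IUA, control MSC and primed MSC against Sham). Without IUA replicate 3 there were 5 in IUA against Sham, and without Sham replicate 3 or control MSC replicate 3 there were 6 and 7 in control MSC against Sham. The share of all tested genes that passed in those fits is not given here. The counts with a library left out therefore do not set the members apart from other genes. These 3 comparisons use the same Sham libraries, so their values stand side by side and are not independent.

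Comparisons among the IUA groups gave few calls or none. In control MSC against IUA, limma called 0 members, against 0.724 percent of all genes higher and 0.129 percent lower. There, 10 of 38 members had an unadjusted p under 0.05. Many of all tested genes also had one in that comparison, so the count does not by itself set the members apart. The 3 members of smallest p in control MSC against IUA were Uhrf1 (log2 change 0.69 ± 0.20, SE, adjusted p = 0.113), Mcm3 (0.61 ± 0.18, adjusted p = 0.114) and E2f1 (0.64 ± 0.20, adjusted p = 0.133). E2f1 and Uhrf1 were the 2 members higher in primed MSC against IUA, against 12.2 percent of all genes, and 0 members were lower, against 6.97 percent. Both calls were lost without IUA replicate 3, where 0 members passed, and both were lost without primed MSC replicate 3, where the 1 member that passed was Tyms, which was lower (log2 change -0.76 ± 0.21, adjusted p = 0.0391). Without IUA replicate 1 both were kept, and Mcm2 and Cdt1 passed as well. Between primed MSC and control MSC, limma called 0 members, against 0.0776 percent of all genes called higher and 0.0345 percent called lower. No member had an unadjusted p under 0.05 there, against 1496 of all 11604 tested genes. The 3 members of smallest p there were the mitotic kinase Plk1 (log2 change -0.49 ± 0.23, adjusted p = 0.404), the activator of the anaphase-promoting complex Cdc20 (-0.67 ± 0.33, adjusted p = 0.420) and the cyclin Ccna2 (-0.31 ± 0.16, adjusted p = 0.447). Over the 4 groups together, the moderated F test of limma called 10 of 38 members, against 67 percent of all tested genes. Without Sham replicate 2 the F test called 4 members, and the share of all genes in that fit is not given here. The 10 were E2f1, Gins2, Ccnb1, Rrm1, Mcm4, Top2a, Kif20a, Uhrf1, Mcm2 and Mcm3, in order of p.

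The balance of higher and lower calls against Sham changed with the scaling of the libraries. Over all tested genes the median log2 change was -0.35 in IUA against Sham, -0.30 in control MSC against Sham and -0.33 in primed MSC against Sham, and median-ratio scaling brought these to -0.0028, 0.03 and 0.04. With that scaling 39 members were tested. In IUA against Sham 8 of them were higher, against 23.2 percent of all tested genes, and 2 were lower, against 21.8 percent. In control MSC against Sham 17 were higher, against 26.6 percent, and 1 was lower, against 23.8 percent. In primed MSC against Sham 13 were higher, against 28.3 percent, and 0 were lower, against 24.7 percent. With the GC correction, of 38 members, 8 were higher (22.7 percent of all tested genes) and 2 lower (21.9 percent) in IUA against Sham. The same correction gave 19 higher (26 percent of all) and 2 lower (25.1 percent) in control MSC against Sham, and 15 higher (27.9 percent) and 2 lower (26.2 percent) in primed MSC against Sham. TPM scaling, with all 43 tested, gave 1 higher (8.73 percent of all) and 7 lower (51.3 percent) in IUA against Sham. Relative to the median of all genes, the median of the 15 tested replication members was 0.25 in primed MSC, 0.27 in control MSC and -0.0028 in IUA, each against Sham. That of the 20 tested mitosis members was 0.53 in primed MSC, 0.62 in control MSC and 0.50 in IUA. Most members had low FPKM, where changes on this scale lie nearer to no change, while the median of all genes was negative. No genes of matched level were compared, so these differences do not by themselves show a relative rise.

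Of the DNA replication members, 6 of 15 fell in IUA against Sham, against 45 percent of all tested genes, and none rose, against 11.1 percent. Mcm2, a subunit of the replicative helicase (chromosome 6, 88883474 to 88898780, build mm10), fell the most. Its level was 4.24, 4.86 and 9.37 FPKM in primed MSC, 4.69, 4.19 and 6.24 in control MSC, 3.97, 3.55 and 1.34 in IUA, and 6.78, 7.02 and 7.59 in Sham. Every IUA library lay below every Sham library, and IUA replicate 3 lay lowest of the 12. The log2 change in IUA against Sham was -1.11 ± 0.30 (SE, adjusted p = 0.00727), and the change in primed MSC against IUA, 0.86 ± 0.30, did not pass (adjusted p = 0.0594). The GC content of Mcm2 transcripts was 58.0 percent. In each library, log2(FPKM + 1) of each gene minus its mean over the 12 libraries was correlated with GC content across genes. This correlation was lowest in IUA replicate 3 (Spearman -0.483, against -0.178 to 0.216 in the other libraries). After a correction for GC content the change of Mcm2 in IUA against Sham was -0.58 ± 0.25 and did not pass (adjusted p = 0.0810).

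The other helicase subunits moved less. Mcm4 was listed at 8.2, 10.2 and 12.52 FPKM in primed MSC, 8.79, 9.07 and 8.92 in control MSC, 9.56, 10.26 and 11.37 in IUA, and 13.53, 15.38 and 13.29 in Sham. No library of the other groups reached the lowest Sham value. Mcm4 fell in all 3 comparisons with Sham, by log2 changes of -0.43 ± 0.14 in primed MSC, -0.60 ± 0.14 in control MSC and -0.40 ± 0.14 in IUA (adjusted p = 0.0192, 0.00330 and 0.0277), and with median-ratio scaling none of these passed. The call in IUA was also lost without Sham replicate 2, IUA replicate 1 or IUA replicate 2, and that in primed MSC without Sham replicate 2 or primed MSC replicate 1. Mcm3 was at 7.82, 8.88 and 14.13 FPKM in primed MSC, 10.69, 10.47 and 12.45 in control MSC, 6.95, 7.73 and 6.25 in IUA, and 11.51, 10.37 and 9.85 in Sham. It fell in IUA against Sham (log2 change -0.54 ± 0.18, adjusted p = 0.0228), where the groups did not overlap, and both MSC groups overlapped Sham. That call was lost in 7 of 24 alternatives, among them median-ratio scaling (-0.17 ± 0.16, adjusted p = 0.399), the GC correction (-0.15 ± 0.16, adjusted p = 0.463) and leaving out Sham replicate 1, Sham replicate 2 or IUA replicate 3. With FPKM as deposited, Mcm5, Mcm6 and Mcm7 passed in no comparison, and nor did the licensing factors Cdc6 (0.41 to 1.46 FPKM) and Cdt1 (3.69 to 8.44 FPKM) or the helicase cofactor Cdc45 (0.7 to 2.57 FPKM). Under 3 of the 5 scalings run, Mcm5 was called higher in primed MSC against Sham, and Cdt1 in both MSC groups against Sham. Mcm6, Mcm7, Cdc6 and Cdc45 were called under no scaling. In primed MSC against IUA, Cdt1 came nearest to passing of the members that did not (log2 change 0.52 ± 0.17, adjusted p = 0.0518).

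Gins2, a subunit of the GINS complex that joins Cdc45 and the Mcm helicase at the fork, separated Sham from every other group (gene ENSMUSG00000031821, chromosome 8, 120578633 to 120589304). Its level was 2.85, 2.65 and 3.53 FPKM in primed MSC, 3.02, 2.56 and 2.73 in control MSC, 2.19, 3.3 and 2.99 in IUA, and 4.77, 5.32 and 6.18 in Sham. All 9 libraries of the IUA groups lay below all Sham libraries. Gins2 fell by log2 changes of -0.68 ± 0.15 in primed MSC, -0.76 ± 0.15 in control MSC and -0.75 ± 0.15 in IUA, each against Sham (adjusted p = 0.00240, 0.00129 and 0.00157). The call in control MSC held under every alternative, the others were lost with the GC correction, and that in primed MSC was lost with median-ratio scaling too. Among the 3 IUA groups the changes of Gins2 lay between -0.01 and 0.08, each with an SE of 0.15.

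The enzymes of nucleotide supply did not move as 1 group. Rrm1, the large subunit of ribonucleotide reductase, was at 9.31, 11.45 and 16.34 FPKM in primed MSC, 14.76, 11.77 and 15.7 in control MSC, 13.38, 11.15 and 14.17 in IUA, and 26.54, 24.96 and 17.17 in Sham. The lowest Sham library lay above every other library by a small margin. Rrm1 fell by -0.85 ± 0.21 in primed MSC, -0.65 ± 0.21 in control MSC and -0.76 ± 0.21 in IUA, each against Sham (adjusted p = 0.00379, 0.0177 and 0.00792). With median-ratio scaling the 3 changes kept their sign and none passed. The call in control MSC was also lost with the GC correction and without Sham replicate 1, Sham replicate 2 or control MSC replicate 2. Rrm2, the small subunit that limits the enzyme's activity in S phase, was at 4.1, 5.36 and 8.05 FPKM in primed MSC, 5.79, 7.42 and 49.35 in control MSC, 7.18, 13.35 and 5.69 in IUA, and 4.59, 4.08 and 4.01 in Sham. The value of 49.35 FPKM in control MSC replicate 3 stood alone, and Rrm2 is named here because of it. Every IUA and control MSC library lay above the Sham libraries, and no comparison of Rrm2 passed with FPKM as deposited (lowest adjusted p = 0.0515, control MSC against Sham, log2 change 1.45 ± 0.59). That comparison was called under 3 of the 5 scalings run. Tyms, thymidylate synthase, was at 4.27, 6.07 and 10.1 FPKM in primed MSC, 8.39, 6.9 and 10.18 in control MSC, 7.71, 10.84 and 9.64 in IUA, and 11.64, 11.18 and 8.88 in Sham. It fell in primed MSC against Sham (-0.63 ± 0.24, adjusted p = 0.0399), although the groups overlapped, and the call was lost in 10 of 24 alternatives, among them leaving out Sham replicate 1 or 2 or primed MSC replicate 1 or 2.

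Pcna, the sliding clamp of DNA polymerases, did not pass in any comparison with FPKM as deposited. It was at 49.33, 51.14 and 54.66 FPKM in primed MSC, 54.53, 55.69 and 60.93 in control MSC, 48.48, 52.67 and 61.63 in IUA, and 63.64, 52.6 and 42.84 in Sham. The 3 Sham libraries spanned every other library, and the log2 change was -0.02 ± 0.14 in primed MSC, 0.12 ± 0.14 in control MSC and 0.04 ± 0.14 in IUA, each against Sham. Median-ratio scaling turned the change in primed MSC against Sham to 0.40 (adjusted p = 0.0247). Under 3 of the 5 scalings run, Pcna was called higher in both MSC groups against Sham. Uhrf1, which keeps DNA methylation in place on newly copied strands, was lowest in IUA (chromosome 17, 56303321 to 56323486). Its level was 2.2, 2.49 and 3.5 FPKM in primed MSC, 2.15, 2.52 and 2.88 in control MSC, 1.64, 1.33 and 0.68 in IUA, and 2.87, 2.49 and 1.86 in Sham. The 3 IUA libraries lay below the 9 others. Uhrf1 fell in IUA against Sham (-0.63 ± 0.20, adjusted p = 0.0171) and rose in primed MSC against IUA (0.76 ± 0.20, adjusted p = 0.0213). Without IUA replicate 3, the lowest library, the change in IUA against Sham was -0.45 ± 0.19 and that in primed MSC against IUA 0.57 ± 0.19, and neither passed (adjusted p = 0.0681 and 0.0764). The call in IUA against Sham was also lost without Sham replicate 1, with median-ratio scaling (-0.37 ± 0.19, adjusted p = 0.135) and with the GC correction (-0.20 ± 0.18, adjusted p = 0.382). The call in primed MSC against IUA was also lost without primed MSC replicate 3 and with only those groups in the fit.

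E2f1, the transcription factor that opens the S phase programme, had the smallest p of all members over the 4 groups (gene ENSMUSG00000027490, chromosome 2, 154559407 to 154569892; adjusted p of the F test = 0.00150). It was at 3.75, 4.91 and 6.39 FPKM in primed MSC, 3.97, 4.18 and 4.39 in control MSC, 3.2, 2.47 and 1.5 in IUA, and 2.11, 1.56 and 1.65 in Sham. All libraries of both MSC groups lay above all IUA and Sham libraries, and IUA overlapped Sham. The change in IUA against Sham was 0.26 ± 0.20 and did not pass (adjusted p = 0.288). Over the 5 scalings run it lay between 0.22 and 0.80, and 3 of them called it higher. E2f1 rose in primed MSC against Sham (log2 change 1.10 ± 0.20, adjusted p = 6.96e-04) and in control MSC against Sham (0.91 ± 0.20, adjusted p = 0.00258), and both calls held under every alternative. It rose in primed MSC against IUA (0.84 ± 0.20, adjusted p = 0.0158). Without IUA replicate 3 that change was 0.63 ± 0.19 and did not pass (adjusted p = 0.0543). E2f1 transcripts have a GC content of 58.1 percent, and with the GC correction the change in primed MSC against IUA was 0.56 ± 0.17 (adjusted p = 0.0409). The call was lost without primed MSC replicate 3, with only those groups in the fit, and with the replicate block and GC correction together. The change in primed MSC against control MSC was 0.19 ± 0.20 (adjusted p = 0.741). The E-type cyclins, which activate Cdk2 at the start of S phase, passed in no comparison, with Ccne1 at 1.77 to 3.89 FPKM and Ccne2 at 1.56 to 4.27 FPKM.

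**Figure D2:**
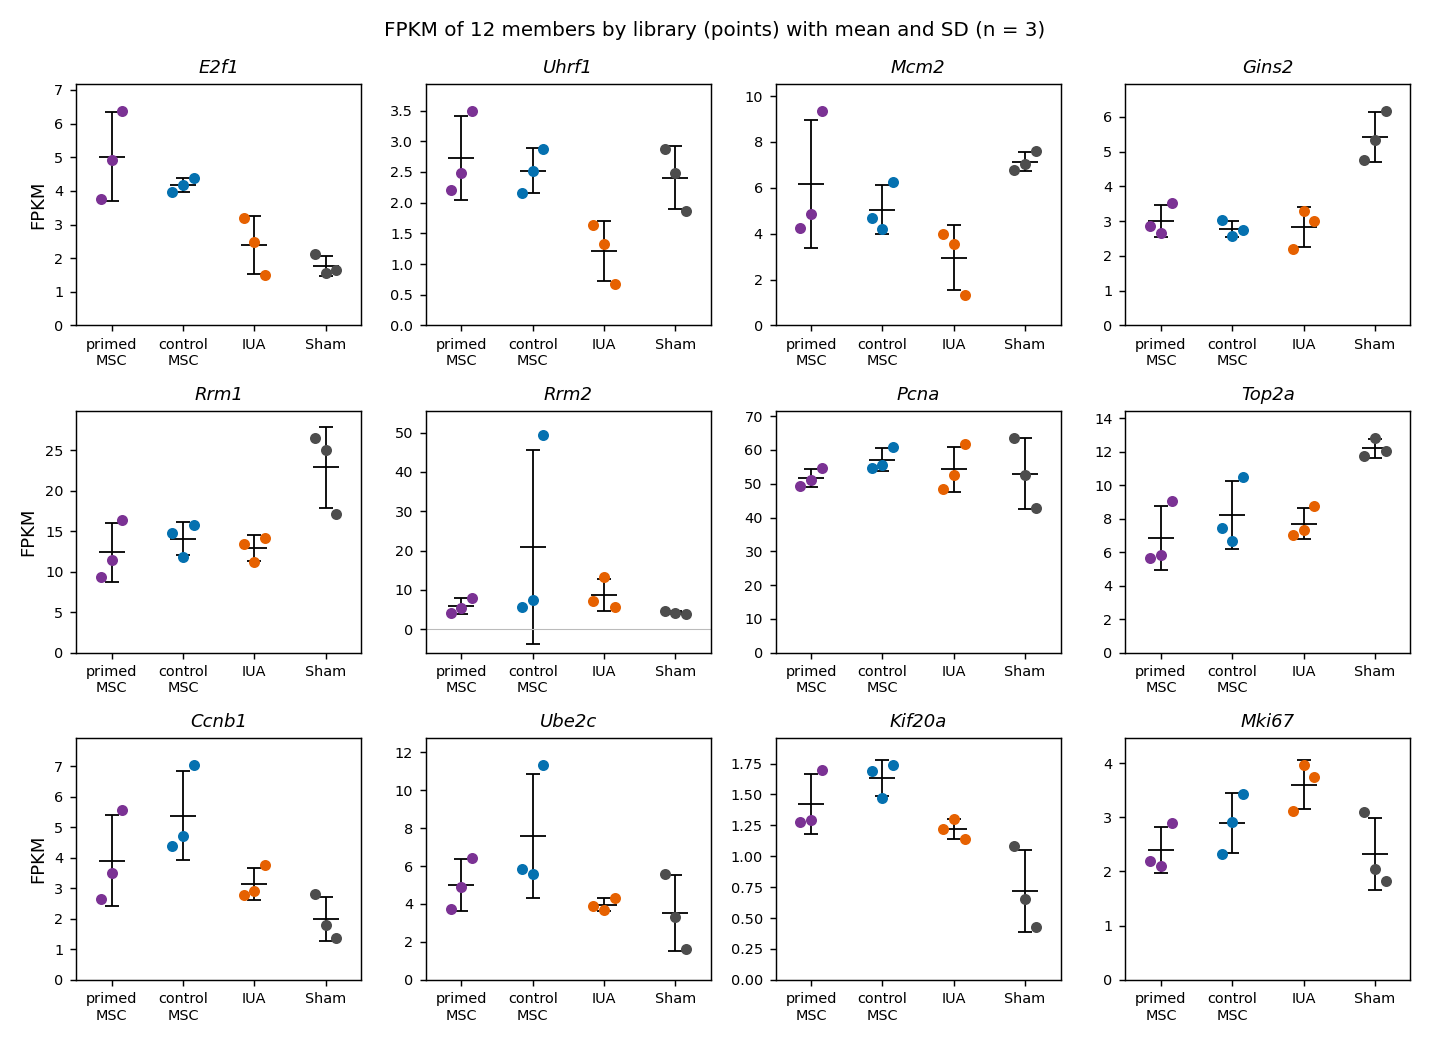
FPKM (vertical axes, linear) of 12 members in the 3 libraries of each group (points, in order of replicate number), with the group mean and SD as bars (n = 3). E2f1 lies at 3.75 to 6.39 FPKM in the MSC groups and at 1.5 to 3.2 in IUA and Sham, Gins2, Rrm1 and Top2a are highest in Sham, and the control MSC value of 49.35 FPKM for Rrm2 lies apart from all others.

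Of the mitosis members, 6 of 20 rose in control MSC against Sham, against 14.1 percent of all tested genes, and 1 fell, against 42.7 percent. Ccnb1, the cyclin B1 partner of Cdk1, changed the most (gene ENSMUSG00000041431, chromosome 13, 100778650 to 100786570). It was at 2.64, 3.51 and 5.56 FPKM in primed MSC, 4.4, 4.7 and 7.05 in control MSC, 2.79, 2.9 and 3.75 in IUA, and 2.81, 1.79 and 1.38 in Sham. Every control MSC library lay above every IUA and Sham library, and the lowest primed MSC and IUA libraries lay below the highest Sham library. Ccnb1 rose in control MSC against Sham by 1.10 ± 0.24 (adjusted p = 0.00238), a call that held under every alternative. It also rose in primed MSC against Sham (0.70 ± 0.24, adjusted p = 0.0265), a call lost without Sham replicate 2, Sham replicate 3 or primed MSC replicate 3. The change in control MSC against IUA, 0.61 ± 0.24, did not pass (adjusted p = 0.212).

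Ccnb2, Ube2c, Cdk1 and Aurkb also rose in control MSC against Sham, and the first 3 had their highest value of all libraries in control MSC replicate 3. Ccnb2, cyclin B2, was at 3.97, 6.72 and 7.41 FPKM in primed MSC, 7.41, 7.48 and 11.74 in control MSC, 5.74, 6.82 and 8.12 in IUA, and 7.24, 2.79 and 3.04 in Sham. Its lowest control MSC library lay just above Sham replicate 1, and its log2 change was 0.95 ± 0.30 (adjusted p = 0.0169). Ube2c, the ubiquitin-conjugating enzyme of the anaphase-promoting complex, was at 3.71, 4.88 and 6.42 FPKM in primed MSC, 5.84, 5.59 and 11.34 in control MSC, 3.88, 3.7 and 4.33 in IUA, and 5.6, 3.3 and 1.63 in Sham. Control MSC replicate 2 and Sham replicate 1 overlapped, and the change was 0.97 ± 0.32 (adjusted p = 0.0208). Cdk1 itself, at 8.32, 8.01 and 14.27 FPKM in control MSC and 7.78, 5.67 and 3.06 in Sham, changed by 0.81 ± 0.27 (adjusted p = 0.0243). Aurkb, the kinase of the chromosomal passenger complex, rose by 0.71 ± 0.25 (adjusted p = 0.0297), with control MSC and Sham overlapping. Without control MSC replicate 3, the calls of Ccnb2, Ube2c, Cdk1 and Aurkb in this comparison were lost, and those of Ccnb1 and Kif20a were kept. Without Sham replicate 3 the same 4 calls were lost too, and without Sham replicate 2 those of Ccnb2 and Aurkb.

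Kif20a, a kinesin of the central spindle needed for cytokinesis, rose in all 3 comparisons with Sham at a low level. It was at 1.28, 1.29 and 1.7 FPKM in primed MSC, 1.69, 1.47 and 1.74 in control MSC, 1.22, 1.3 and 1.14 in IUA, and 1.08, 0.65 and 0.43 in Sham. All 9 libraries of the IUA groups lay above all Sham libraries. The log2 changes against Sham were 0.51 ± 0.15 in primed MSC, 0.63 ± 0.15 in control MSC and 0.38 ± 0.15 in IUA (adjusted p = 0.0126, 0.00402 and 0.0478). The call in control MSC held under every alternative, that in primed MSC was lost without Sham replicate 3 or primed MSC replicate 3, and that in IUA was lost in 15 of 23, among them leaving out any single library other than Sham replicate 1. Hmmr, a spindle and hyaluronan-binding protein, was at 0.64, 1.37 and 1.58 FPKM in primed MSC, 1, 0.85 and 1.48 in control MSC, 1.46, 1.09 and 1.6 in IUA, and 1.02, 0.34 and 0.56 in Sham. It rose in IUA against Sham (0.55 ± 0.21, adjusted p = 0.0387), where the groups did not overlap, and both MSC groups overlapped Sham. That call was lost without Sham replicate 2, Sham replicate 3, IUA replicate 1 or IUA replicate 3. Prc1, which bundles the microtubules of the central spindle, fell in primed MSC against Sham (-0.60 ± 0.24, adjusted p = 0.0486), a call lost in 18 of 24 alternatives, 10 of which left out 1 library. With FPKM as deposited, the other tested spindle genes (Kif11, Kif23, Tpx2 and Nusap1), the kinases Plk1 and Aurka, the checkpoint kinase Bub1b, Birc5, Cdc20 and Ccna2 passed in no comparison. Under 3 of the 5 scalings run, Aurka was called higher in both MSC groups against Sham, and Birc5 and Ccna2 in control MSC against Sham. Kif11, Nusap1, Bub1b and Cdc20 were called under no scaling.

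Top2a and Mki67, both widely used as markers of cycling cells, went in opposite directions in IUA against Sham. Top2a, the topoisomerase that untangles sister chromatids, was at 5.64, 5.85 and 9.04 FPKM in primed MSC, 7.46, 6.64 and 10.51 in control MSC, 7.05, 7.32 and 8.75 in IUA, and 11.71, 12.83 and 12.05 in Sham. All 9 libraries of the IUA groups lay below all Sham libraries. Top2a fell by -0.78 ± 0.19 in primed MSC, -0.54 ± 0.19 in control MSC and -0.60 ± 0.19 in IUA, each against Sham (adjusted p = 0.00344, 0.0257 and 0.0155), and with median-ratio scaling none of the 3 passed. The call in control MSC was also lost with the GC correction and without Sham replicate 2 or 3 or control MSC replicate 1 or 2. Mki67, which encodes the Ki-67 antigen of cycling cells, was at 2.19, 2.11 and 2.89 FPKM in primed MSC, 2.33, 2.92 and 3.44 in control MSC, 3.11, 3.97 and 3.74 in IUA, and 3.09, 2.05 and 1.83 in Sham. Each IUA library lay above each Sham library, the nearest pair being 3.11 and 3.09 FPKM. Mki67 rose in IUA against Sham by 0.49 ± 0.18 (adjusted p = 0.0330), a call lost in 8 of 23 alternatives, among them leaving out Sham replicate 2 or 3 or IUA replicate 2 or 3. It was lower in all primed MSC libraries than in all IUA libraries, and that change, -0.44 ± 0.18, did not pass (adjusted p = 0.0954). Changes of Top2a were negative and those of Mki67 positive in IUA against Sham under all 5 scalings run.

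In each comparison with Sham, the median change of the replication members lay below that of the mitosis members. The mean log2(FPKM + 1) of the 15 tested replication members minus that of the 20 tested mitosis members was 0.902, 0.900 and 1.02 in primed MSC, 0.791, 0.799 and 0.774 in control MSC, 0.903, 0.847 and 0.599 in IUA, and 0.991, 1.37 and 1.41 in Sham. Sham replicates 2 and 3 lay above every other library, and Sham replicate 1 lay below primed MSC replicate 3. In terms of the median log2 change, replication minus mitosis was -0.28 in primed MSC, -0.35 in control MSC and -0.50 in IUA, each against Sham, and the SD of the per-library difference within groups was 0.144. With median-ratio scaling the values, in the same order, were -0.26, -0.27 and -0.45, and with the GC correction they were -0.29, -0.35 and -0.54. The value in IUA against Sham was -0.69 without Sham replicate 1 and -0.33 without IUA replicate 3. The 3 values share their Sham libraries, and no test was run on them. Among the IUA groups the difference was 0.10 in control MSC against IUA, 0.03 in primed MSC against IUA and 0.09 in primed MSC against control MSC. Leaving out each library in turn, these ran from -0.052 to 0.10, -0.0068 to 0.097 and 0.083 to 0.197, in the same order. The SD of 0.144 describes list means in single libraries, so it is not the error of these differences of medians.

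**Figure D3:**
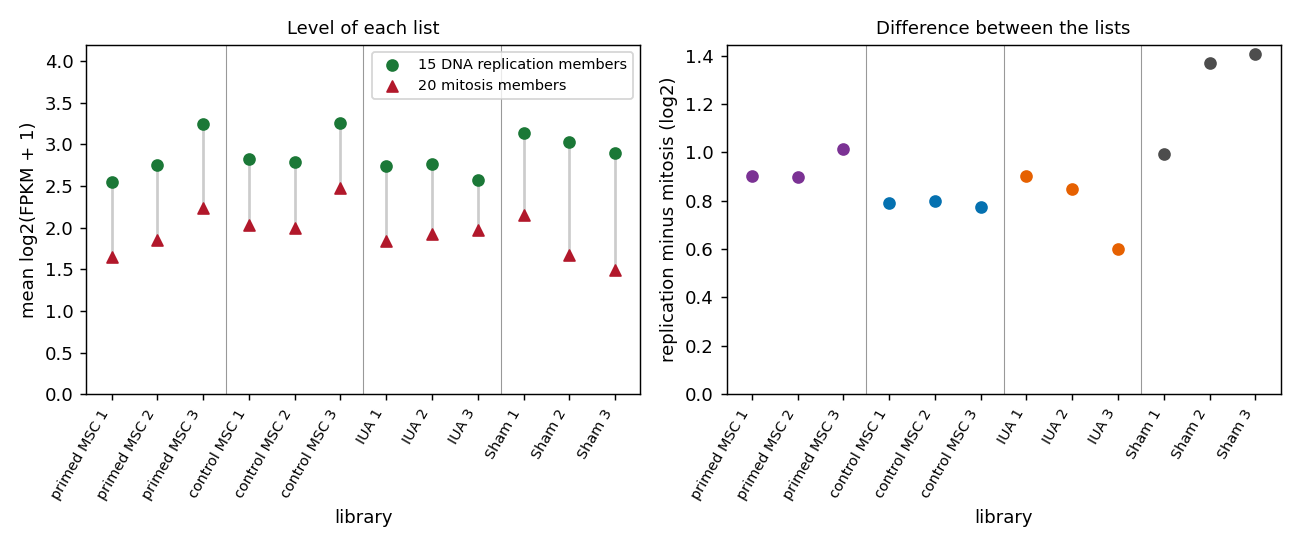
Left, the mean log2(FPKM + 1) of the 15 tested replication members (circles) and the 20 tested mitosis members (triangles) in each library. Right, the difference of the 2 means per library, which is 1.37 and 1.41 in Sham replicates 2 and 3 and between 0.599 and 1.02 in the other 10 libraries.

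In IUA against Sham, no replication member rose and 6 of 15 fell (median log2 change -0.35), while 3 of 20 mitosis members rose and 1 fell (median 0.15). In control MSC against Sham, 0 replication members rose and 3 fell (median -0.03), and 6 mitosis members rose and 1 fell (median 0.32). In primed MSC against Sham, 0 replication members rose and 4 fell (median -0.08), and 2 mitosis members rose and 2 fell (median 0.21). The share of replication members called lower was 40 percent in IUA, near the 45 percent of all tested genes. It was 20 percent in control MSC and 26.7 percent in primed MSC, below the 42.7 and 45 percent of all tested genes. Of all tested genes, 11.1 percent were higher in IUA, 14.1 percent in control MSC and 14.5 percent in primed MSC, each against Sham. With median-ratio scaling 1 replication member was higher and 2 lower in IUA, with 6 mitosis members higher and 0 lower, against 23.2 percent of all tested genes higher and 21.8 percent lower. In control MSC against IUA the medians were 0.32 for replication and 0.22 for mitosis, and in primed MSC against IUA 0.07 and 0.04. Primed MSC against control MSC gave -0.13 for replication and -0.23 for mitosis, with 1 of 20 mitosis members above 0, and control MSC replicate 3 was highest for 21 of the 24 mitosis members.

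**Figure D4:**
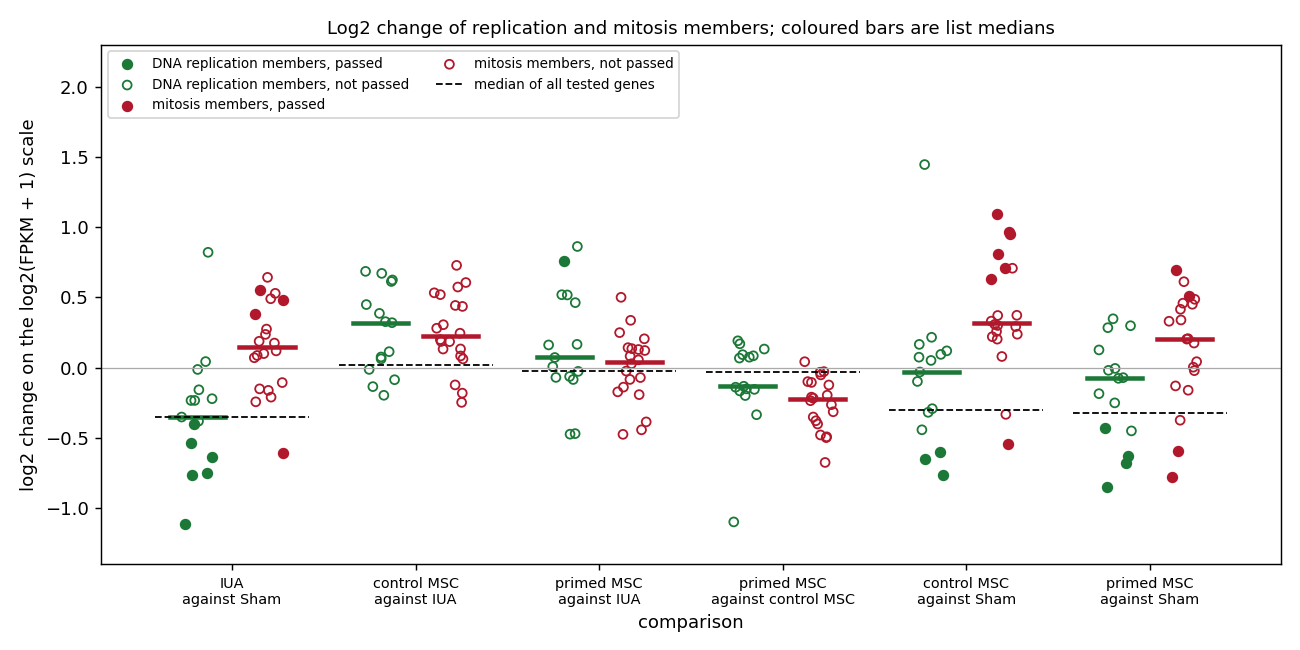
Log2 change (vertical axis, log2(FPKM + 1) scale) of each tested replication member (green) and mitosis member (red) in the 6 comparisons, filled where limma passed it. Thick bars are list medians and dashed lines the median of all 11604 tested genes. Against Sham the mitosis medians (0.15, 0.32 and 0.21) lie above the replication medians (-0.35, -0.03 and -0.08), and the dashed lines lie at -0.35 to -0.30.

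Replication and mitosis genes outside the 43 were read against the same shares of all tested genes, 11.1 percent higher and 45 percent lower in IUA, 14.1 and 42.7 percent in control MSC, and 14.5 and 45 percent in primed MSC, each against Sham. Of 30 other tested replication genes, 2 rose and 6 fell in IUA against Sham, 3 rose and 2 fell in control MSC against Sham, and 3 rose and 5 fell in primed MSC against Sham. Rpa1, a subunit of the single-strand binding protein, fell in all of these (log2 change -0.77 ± 0.19 in primed MSC, -0.82 ± 0.19 in control MSC and -0.96 ± 0.19 in IUA). Asf1b, a histone chaperone, rose in primed MSC (1.03 ± 0.25) and control MSC (1.10 ± 0.25) against Sham. The maintenance DNA methyltransferase Dnmt1 (0.73 ± 0.18, adjusted p = 0.0168) and the polymerase delta subunit Pold1 (0.85 ± 0.23, adjusted p = 0.0225) rose in primed MSC against IUA, where 0 of the 30 fell. These 2 were 6.67 percent of the list, against 12.2 percent of all tested genes higher and 6.97 percent lower there. Both had their lowest value in IUA replicate 3 (2.18 and 0.59 FPKM), and their change without that library is not given here. Of 32 other mitosis genes, 3 rose and 1 fell in IUA against Sham, 5 rose and 1 fell in control MSC against Sham, and 3 rose and 3 fell in primed MSC against Sham. Cks2, a small subunit of Cdk complexes, rose in all 3 (0.89 ± 0.25 in primed MSC, 1.22 ± 0.25 in control MSC and 1.15 ± 0.25 in IUA), and the spindle gene Ckap2l rose in IUA against Sham by 1.31 ± 0.25. In primed MSC against IUA, Ckap2l (-0.78 ± 0.25, adjusted p = 0.0435) and the securin gene Pttg1 (-0.49 ± 0.10, adjusted p = 0.00655) fell. They were 6.25 percent of the 32, near the 6.97 percent of all tested genes called lower there.

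The lists of genes that act before S phase or restrain the cycle are given for comparison. Of 15 tested G1 cyclins, kinases and E2F family genes, 2 rose and 10 fell in IUA against Sham (median log2 change -0.64, or -0.29 relative to all genes), 2 rose and 9 fell in control MSC against Sham, and 1 rose and 8 fell in primed MSC against Sham. The share called in either direction was 80, 73.3 and 60 percent of the list in IUA, control MSC and primed MSC against Sham, against 56.2, 56.8 and 59.5 percent of all tested genes. Cyclin D2, encoded by Ccnd2, fell by -1.81 ± 0.17 in primed MSC and -1.32 ± 0.17 in control MSC against Sham (adjusted p = 1.03e-05 and 8.72e-05), and by -0.90 ± 0.17 in primed MSC against IUA (adjusted p = 0.00512). The growth regulator Myc fell by -1.20 ± 0.13 in primed MSC and -1.11 ± 0.13 in control MSC against Sham. In IUA against Sham the 3 genes of smallest p were Lin54, a subunit of the MuvB complex, which rose by 1.02 ± 0.15 (adjusted p = 2.83e-04), Ccnd1, cyclin D1, which fell (-1.10 ± 0.17, adjusted p = 3.31e-04), and Rbl2, a pocket protein of the DREAM complex, which fell (-0.89 ± 0.14, adjusted p = 3.63e-04). The G1 kinase Cdk6 fell in primed MSC against IUA (-0.69 ± 0.13, adjusted p = 0.00503), and its change in primed MSC against control MSC, -0.52 ± 0.13, did not pass (adjusted p = 0.139). Of 14 tested cell cycle inhibitors, 3 rose and 4 fell in IUA against Sham, 4 rose and 4 fell in control MSC against Sham, and 4 rose and 5 fell in primed MSC against Sham. In the same order, 50, 57.1 and 64.3 percent of these inhibitors were called, near the 56.2, 56.8 and 59.5 percent of all tested genes. The antiproliferative gene Btg1 rose in each (1.18 ± 0.14 in primed MSC, 1.10 ± 0.14 in control MSC and 1.14 ± 0.14 in IUA), and Gadd45a, a stress response gene, fell in each (-1.64 ± 0.21, -1.58 ± 0.21 and -1.05 ± 0.21 in the same order). Fzr1, the G1 activator of the anaphase-promoting complex, rose in primed MSC (1.14 ± 0.19, adjusted p = 0.00290) and control MSC (0.96 ± 0.19, adjusted p = 0.0427) against IUA.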

How the data were processed

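RNA from bead-sorted F4/80+ endometrial cells of mice was sequenced in 12 libraries, 3 in each of 4 groups. The authors deposited 1 table of FPKM values per gene and library, rounded to 2 decimals. Build mm10 and the tools HISAT2, RSEM, StringTie, DESeq2 and fastp are named in the submitters' processing notes, and versions are not given in the sources used here. The table holds no counts, so sequencing depth is unknown and no count model or interval from counts was used. Ratios of low values between libraries gathered at no common step (at most 8.77 percent of genes in a bin 0.1 log2 units wide), and whole reads were not recovered.

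The values were taken as log2(FPKM + 1) and fitted in R 4.3.3 with limma 3.58.1, with 1 mean per group over all 12 libraries and an empirical Bayes variance trend. The filter required 1 FPKM or more in 3 or more libraries. Tests were two-sided, with Benjamini-Hochberg adjustment over all tested genes for each of the 6 comparisons, and a moderated F test covered the 4 groups. Errors are the SE of limma. With 3 libraries per group, the smallest two-sided p of an exact permutation test is 0.1. The script was tested on simulated data. Alternatives covered pseudocounts, filters, scalings, the compared groups alone, a replicate block, a correction for transcript GC content (lowess, span 0.3), an adjusted p under 0.1 and leaving out each library. Gene positions and GC content come from the GENCODE annotation of the same build, and promoters from RefSeq.

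The members and gene lists were chosen with earlier results of these data known. All members may be named. Values of each library are given for Mki67, Top2a, Pcna, the member with the smallest F test p in each list, and up to 4 members per direction with the largest change among those that passed in a comparison. Where fewer than 2 passed in a direction, the 3 of smallest p are given. Other pathway lists are shown by up to 3 genes of smallest p.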

Additional observations from a re-analysis of the deposited data

How the results depend on the processing

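Depth is unknown, most members had low FPKM and each group had 3 libraries, which limits what could pass. Under the alternatives run, 5 of the 32 member calls held throughout, those of Kif20a, E2f1, Gins2 and Ccnb1 in control MSC against Sham and of E2f1 in primed MSC against Sham. Where a value moved, the cause was not tested, apart from the FPKM 5 filter, which left fewer genes. The counts of called members in this section are given without the share of all tested genes under the same setting. They therefore do not set the members apart from other genes. Counts against Sham with median-ratio scaling or the GC correction stand above beside their shares. With pseudocount 0.1, replication minus mitosis was -0.45 in primed MSC and -0.52 in control MSC, each against Sham. The filter at FPKM 5 left 17 members and called 5 in IUA against Sham, 6 in control MSC against Sham, 4 in primed MSC against Sham, 1 in primed MSC against IUA and 5 by the F test, with replication minus mitosis at -0.58 in primed MSC and -0.79 in control MSC against Sham. Median-ratio scaling called 4 in primed MSC against IUA, 18 in control MSC against Sham and 18 by the F test. Fitting the compared groups alone called 0 in primed MSC against IUA. The GC correction called 17 in primed MSC and 21 in control MSC against Sham. At an adjusted p under 0.1, 6 were called in primed MSC against IUA and 16 by the F test. Pcna in primed MSC against Sham turned from -0.02 to 0.40 with median-ratio scaling, 0.31 with the GC correction and 0.37 with both. Over the 38 tested members in all 6 comparisons, the alternatives gave 5346 values. Of these, 613 kept a call, 139 lost one, 141 gained one and 4180 were called in neither setting with the same sign. The sign changed in 270 values called in neither setting and in the 3 of Pcna above. Median-ratio scaling alone gained 24 calls, lost 14 and changed the sign of 25 uncalled values, and the GC correction alone gained 28, lost 11 and changed the sign of 36.

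Leaving out each library in turn gave 5 to 12 called members in IUA against Sham, 6 to 12 in control MSC against Sham, 5 to 13 in primed MSC against Sham, 0 to 4 in primed MSC against IUA and 4 to 14 by the F test. Both other comparisons gave 0 throughout. Replication minus mitosis ran from -0.69 to -0.33 in IUA against Sham and from -0.052 to 0.10 in control MSC against IUA.

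No pairing of the libraries by replicate number was seen. Of 18 same-numbered pairs 3 had a correlation of deviations above 0.1 (range -0.293 to 0.288), and 2 of 12 libraries correlated best with their own number. These correlations cannot show that same-numbered libraries were handled apart. A replicate block called 8 members in IUA against Sham, 11 in control MSC against Sham, 8 in primed MSC against Sham, 2 in primed MSC against IUA, 0 in the other comparisons and 8 by the F test. Added after seeing the data, the replicate block with GC correction called 14 in primed MSC against Sham, 20 in control MSC against Sham and 1 in primed MSC against IUA. Median-ratio scaling with GC correction, also added then, called 16 in primed MSC and 19 in control MSC against Sham.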
